A study of Mus musculus with 8 samples.

Results

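The subject here is a set of 9 genes: 7 that encode nuclear receptors (Esr1, Esrra, Nr3c1, Nr2f2, Rxra, Rxrb and Pparg), the aryl hydrocarbon receptor gene Ahr, and Arnt, which encodes its DNA-binding partner. They were chosen by name because bisphenol A (BPA) acts on hormone receptors. Of the 9 genes, 8 were rows of a count table of 12404 genes, and Pparg was not a row and is not analysed here. The cells were TM3, an established mouse line of the Leydig type, the testis cell that makes testosterone. Cells with BPA exposure were compared with normal cells, and no dose, exposure time, vehicle or passage stands in the labels used here. Each condition had 2 RNA-seq libraries and 2 MeRIP libraries, in which RNA fragments carrying N6-methyladenosine (m6A) are pulled down with an antibody. By the design text, RNA-seq also served as the MeRIP input. Nothing in the labels says that the replicates are separate cultures, so the p-values rest on a spread between libraries that may be technical.

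Nuclear receptors are transcription factors with a zinc-finger DNA-binding domain and a pocket for small lipophilic ligands such as steroids, retinoids and fatty acids. The glucocorticoid receptor is held in the cytosol by HSP90 chaperones until a hormone binds, whereas retinoid X receptors sit in the nucleus as the shared partner of many other receptors. AHR belongs to another family, the basic helix-loop-helix PAS proteins: it is also kept in the cytosol by HSP90 together with p23 and other co-chaperones, and after binding dioxin-like compounds it pairs with ARNT and switches on genes such as Cyp1b1. BPA is a weak estrogen receptor ligand, and in the testis Leydig cells respond to estrogens, glucocorticoids and AHR ligands.

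The libraries held 8813870 and 6305121 reads in BPA cells and 10455643 and 7517482 in normal cells. Over all rows the median count was 15 and 2 in BPA against 233 and 150 in normal cells, so the BPA libraries stand apart in how thinly most genes were covered. Between the 2 BPA libraries the median gene of the 6319 tested genes seen in both differed 3.34-fold, and between the 2 normal libraries the median of 7767 genes was 1.68-fold. Of the 9 Leydig markers set for the check of the cell type, among them Star, Cyp17a1 and Lhcgr, 0 were rows of the table. They thus do not bear out the label. Genes with very few reads were rows, such as Des, described below. Whether the 9 markers had 0 reads or were left out for another reason was not tested. Of a wider list of Leydig genes 1 was a row, the lipoprotein receptor gene Scarb1, with 1677 and 331 reads in BPA cells and 458 and 150 in normal cells, and edgeR's quasi-likelihood test gave it an adjusted p above 0.05. Markers of other testis cells were summed over the rows present. Of smooth muscle and endothelial markers 2 of 6 were present (Acta2 and Des), at 58.2 and 237 CPM (counts per 1000000 reads, after scaling of library sizes) in BPA and 6.93 and 45.1 CPM in normal cells. Nearly all of that was Acta2, since Des had 3 and 0 reads in BPA and 0 in both normal libraries. Of macrophage markers 2 of 5 (Cd68 and Lyz2) had 20.3 and 81.5 CPM in BPA and 10.9 and 7.57 CPM in normal cells. These 2 genes did not move together, which the sum hides. Cd68 was counted 174 and 436 times in the BPA libraries, against 0 and 59 times in the normal ones. For Lyz2 the BPA counts were 1 and 0, whereas the normal counts were 126 and 0. Of Sertoli markers 5 of 8 had 280.3 and 135 CPM in BPA and 166 and 309 CPM in normal cells. Of germ cell markers 1 of 6 was present, Stra8, with 0 and 5.61 CPM in BPA and 0 CPM in both normal libraries. The part of other cells in the results below was not tested. In bulk RNA, fewer cells that express a gene and less RNA per cell cannot be told apart.

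Of the 7 listed genes with enough reads for a test, Rxra lay higher and Rxrb lower in both BPA libraries than in both normal libraries, while the BPA and normal libraries overlapped for Esr1, Nr3c1, Nr2f2, Ahr and Arnt. Groups without overlap were found in 40.0% of the 8645 tested genes, with 12.8% higher and 27.2% lower in BPA, so 2 of 7 is no more than the background share. With edgeR's quasi-likelihood test and Benjamini-Hochberg adjusted p-values, 0 of the 7 genes were called at 0.05, against 0.0% of all tested genes in either direction. At an unadjusted p under 0.05 there was 1, Rxrb, lower in BPA, against 12.7% of all tested genes that were lower and 1.35% that were higher. DESeq2 called 0 of the 7, against 0.521% of all tested genes called higher and 2.53% called lower. The 7 log2 fold changes were positive for 3 genes (48.9% of all tested genes) and negative for 4. Their median was -0.27, and that of all tested genes was -0.04.

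**Figure D1:**
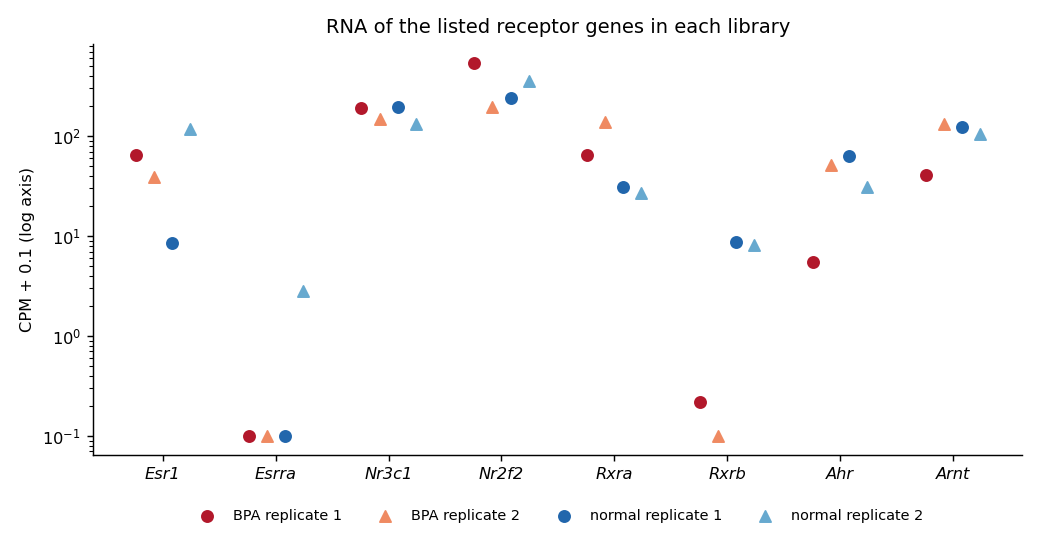
RNA level of the 8 listed genes present in the table, as CPM plus 0.1 on a log axis, with 1 point for each of the 2 BPA and 2 normal libraries. Points for Rxra are higher and those for Rxrb lower in BPA, the 2 normal Esr1 points lie far apart, and Esrra has reads in 1 normal library only.

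The retinoid X receptors are shown first, since they were the pair whose libraries did not overlap. Rxra (ENSMUSG00000015846) encodes RXR alpha, the partner of the retinoic acid, thyroid, vitamin D, PPAR and LXR receptors. It had 561 and 745 reads in BPA cells, against 358 and 209 reads in the normal libraries. On the CPM scale it averaged 102 ± 52.4 in BPA and 28.9 ± 2.98 in normal cells (SD over 2 libraries each). Both BPA libraries were the higher ones, and the BPA pair was the wider one. The log2 fold change was 1.82 ± 1.23 (SE) in edgeR's quasi-likelihood test. With an unadjusted p of 0.198 and an adjusted p of 0.835 in that test, it was not called. It was 2.32 with BPA replicate 1 left out and 1.21 with BPA replicate 2 left out. The pooled reads, over the same scaled library sizes, had a ratio of BPA to normal of 3.19, with an exact 95% interval of 2.89 to 3.53. Intervals and floors here pool the reads of a group, so they cover counting error only and leave out the spread between libraries. No molecular identifiers separate copies of 1 molecule, so even the counting error may be understated.

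Rxrb (ENSMUSG00000039656) encodes RXR beta, a second gene of the same subfamily. It had 1 and 0 reads in BPA cells, against 100 and 62 reads in the normal libraries. The normal libraries were close to each other, at 8.67 and 7.95 CPM, and the BPA libraries held almost no read. Pooled, BPA over normal came to 0.00855 (exact 95% interval 0.000215 to 0.0483). The log2 fold change was -6.73 ± 1.96 (SE) in edgeR, with an adjusted p of 0.329, and DESeq2 gave no adjusted p. Fitted with 1 BPA library it was -9.09 without replicate 1 and -5.97 without replicate 2, and with so few reads it depends on how the model treats counts near 0. The pattern was common: 15.5% of tested genes were at 10 reads or below in both BPA libraries and above that in both normal ones, whereas 0.335% had the reverse. Rxra and Rxrb thus differed in the sign of their values, and the difference between the 2 genes was not tested.

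The promoters of this pair and of Arnt are printed here to show where letters bound by receptors of these classes occur in them, with 1 window a gene chosen after the matches were seen. They come from RefSeq (GRCm38.p6, not the build of the peaks) and run from 250 bases before to 50 bases after a start site. Capitals mark GCGTG, which on the other strand reads CACGC and is the core bound by AHR with ARNT, and AGGTCA, which on the other strand reads TGACCT and is the half-site of many nuclear receptors. The first is a second start site of Rxra on chr2:27709042-27709341 (plus strand), the next is Rxrb on chr17:34031562-34031861 (plus strand), and the last is Arnt on chr3:95434140-95434439 (plus strand).
Rxra: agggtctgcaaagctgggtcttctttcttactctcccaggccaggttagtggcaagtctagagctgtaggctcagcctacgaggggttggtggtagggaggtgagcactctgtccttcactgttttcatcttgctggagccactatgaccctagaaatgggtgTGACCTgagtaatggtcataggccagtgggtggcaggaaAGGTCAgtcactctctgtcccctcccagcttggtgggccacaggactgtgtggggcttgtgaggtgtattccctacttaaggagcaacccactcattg
Rxrb: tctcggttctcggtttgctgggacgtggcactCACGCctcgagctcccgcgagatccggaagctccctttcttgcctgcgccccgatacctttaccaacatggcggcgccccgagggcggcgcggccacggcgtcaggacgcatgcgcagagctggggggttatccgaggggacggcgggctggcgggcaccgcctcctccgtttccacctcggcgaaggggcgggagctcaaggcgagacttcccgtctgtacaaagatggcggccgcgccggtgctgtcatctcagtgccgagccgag
Arnt: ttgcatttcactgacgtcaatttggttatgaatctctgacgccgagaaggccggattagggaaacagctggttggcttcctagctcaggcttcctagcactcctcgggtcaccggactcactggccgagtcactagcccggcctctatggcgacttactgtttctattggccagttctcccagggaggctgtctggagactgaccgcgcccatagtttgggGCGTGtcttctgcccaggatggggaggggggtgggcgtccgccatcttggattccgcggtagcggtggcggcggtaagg
The Rxra window held 2 AGGTCA matches, in opposite directions, and no GCGTG match. The Rxrb and Arnt windows each held 1 GCGTG match and no AGGTCA match. Of all 32851 promoter windows of 300 bases in the table, 32.4% held GCGTG and 16.3% held AGGTCA on either strand. The other Rxra window held neither match, and the other Rxrb window held 2 GCGTG matches. Ahr and Nr3c1 had no entry. Among the 9 windows of the 6 genes that were rows of the count table and had one, 5 held GCGTG and 1 held AGGTCA. Neighbouring matches may overlap, as in the Esrra window, where CACGCGTG was counted as 2. A match describes the letters and not binding.

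Esr1 (ENSMUSG00000019768) encodes estrogen receptor alpha, the classical receptor for estradiol and a direct target of BPA. It had 561 and 206 reads in BPA cells, against 97 and 912 reads in the normal libraries. The BPA libraries lay between the normal ones, which differed 13.9-fold from each other on the CPM scale (8.41 and 117 CPM). The means were 51.8 ± 18.9 CPM in BPA and 62.7 ± 76.8 CPM in normal cells (SD over 2 libraries each). The log2 fold change in edgeR was -0.27 ± 1.69 (SE), with an adjusted p of 1.00. Its direction rested on single libraries, with 2.65 without normal replicate 2, -1.03 without normal replicate 1 and 0.10 without BPA replicate 2.

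Esrra (ENSMUSG00000024955) encodes estrogen-related receptor alpha, an orphan receptor that drives mitochondrial genes together with PGC-1 coactivators. It had 0 reads in both BPA libraries, against 0 and 21 reads in the normal libraries. All of its reads came from normal replicate 2, so it fell under the filter on low counts and was not tested. Set against 3 counts over the BPA group as a floor, it was at least 5.05-fold lower in BPA on the scaled library sizes, with counting error as the only error. In the reference table Esrra overlaps Trmt112, which had 0 and 0 reads in BPA cells and 88 and 1 in normal cells. The sources used here do not say whether counting used strand, so reads of such overlapping pairs cannot be told apart. Of the 12404 genes, 24.6% had 0 reads in both BPA libraries and 7.08% had 0 in both normal libraries.

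Nr3c1 (ENSMUSG00000024431) encodes the glucocorticoid receptor, through which stress hormones restrain steroid production in Leydig cells. It had 1651 and 797 reads in BPA cells, against 2239 and 1040 reads in the normal libraries. On the CPM scale it had 192 and 149 in BPA cells, against 194 and 133 in normal cells. The BPA libraries lay inside the range of the normal ones, and replicates differed 1.29-fold in BPA and 1.45-fold in normal cells. The log2 fold change in edgeR was 0.06 ± 0.59 (SE), the smallest error of the 7 genes, with an adjusted p of 1.00. The sign of so small a value turned with the setting: it was -0.22 when genes with mean reads of 1000 or more were fitted alone, -0.09 without BPA replicate 1 and -0.16 without normal replicate 2.

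Nr2f2 (ENSMUSG00000030551) encodes COUP-TFII, an orphan receptor of mesenchymal cells and of Leydig cell progenitors. It had 4674 and 1043 reads in BPA cells, against 2777 and 2800 reads in the normal libraries. The BPA libraries, at 543 and 195 CPM, lay on either side of the normal ones, at 241 and 359 CPM. In edgeR its log2 fold change was 0.30 ± 0.64 (SE), with an adjusted p of 1.00. Leaving out BPA replicate 1 made it -0.57, and leaving out BPA replicate 2 made it 0.90. In the reference table Nr2f2 overlaps the noncoding gene B130024G19Rik, which had 0 and 0 reads in BPA cells and 103 and 0 in normal cells.

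Ahr (ENSMUSG00000019256) had 47 and 276 reads in BPA cells, against 727 and 239 reads in the normal libraries. BPA replicate 1, at 5.46 CPM, was the lowest library, and BPA replicate 2, at 51.6 CPM, lay between the normal libraries at 63.0 and 30.6 CPM. The log2 fold change in edgeR was -0.72 ± 1.96 (SE), with an adjusted p of 1.00. Leaving out BPA replicate 1 made it 0.19, and leaving out BPA replicate 2 made it -3.06.

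Arnt (ENSMUSG00000015522), also known as HIF-1 beta, is the partner that AHR and the hypoxia factors share. It had 348 and 709 reads in BPA cells, against 1428 and 826 reads in the normal libraries. Normal libraries agreed within 1.17-fold (124 and 106 CPM), and the BPA libraries lay on either side of them (40.4 and 133 CPM). In edgeR its log2 fold change was -0.41 ± 0.96 (SE), with an adjusted p of 1.00. As for Ahr, the sign followed the library left out, with 0.26 without BPA replicate 1 and -1.47 without BPA replicate 2.

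**Figure D2:**
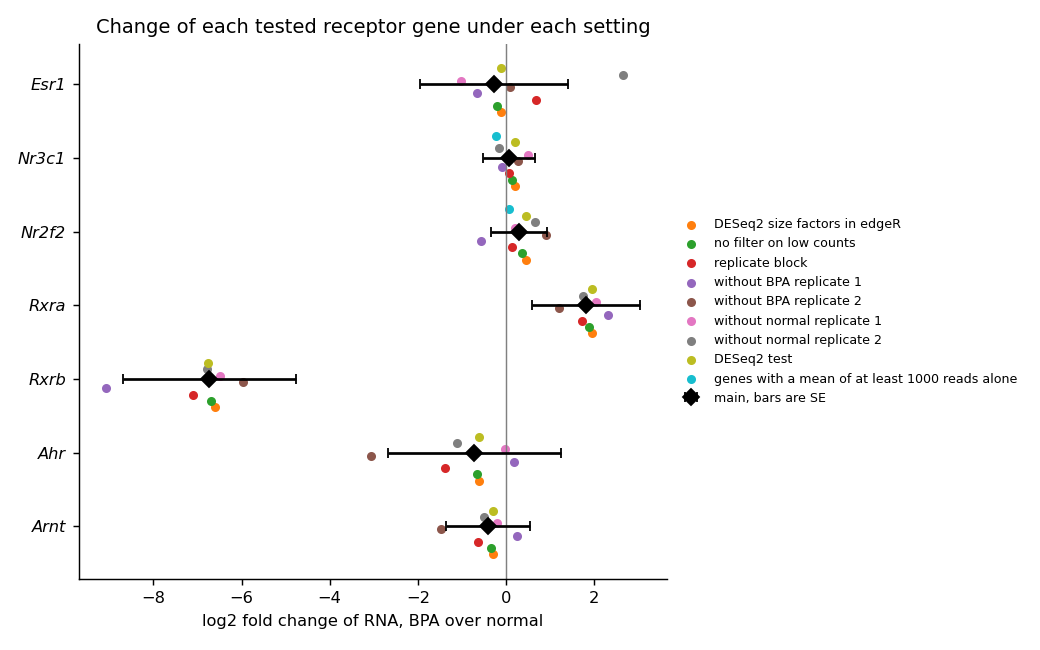
Log2 fold change of RNA, BPA over normal, for the 7 tested genes, with the main value as a diamond with its SE and a dot for each other setting. Rxra lies between 1.21 and 2.32 and Rxrb between -9.09 and -5.97 under every setting drawn, while Esr1, Nr3c1, Nr2f2, Ahr and Arnt have dots on both sides of 0.

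The m6A table listed 3331 differential peaks with replicates pooled by the authors. Of the 8 listed genes in the count table, 3 had a peak, with 1 peak each: Ahr, Arnt and Nr2f2. At least 1 peak was listed for 17.5% of all genes of the table. Tested genes with a peak had a median average log2 CPM of 6.86, against 4.96 for those without, so peaks were listed more for abundant genes. All 3 peaks had a positive log2 fold change in the authors' deposited table, as had 68.8% of all peaks, and their false discovery rate was under 0.01, as in 99.0% of all peaks (100.0% were under 0.05). That fold change compares IP over input between BPA and normal cells. It exceeds the value computed from the RPM columns (reads per 1000000) by 0.78, a constant measured over the 1016 peaks that hold 100 reads or more in each of 4 columns. Positions are given 1-based, in a build that was read as GRCm39. No genome of that build was used here, so peak sequences, exons and UTRs are not analysed here.

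The Ahr peak spanned 125 bases at chr12:35549448-35549572 on the minus strand. Its IP value was 181 RPM in BPA and 178 RPM in normal cells, and its input value was 50.1 RPM in BPA and 166 RPM in normal cells. The IP was thus nearly equal between the conditions and the input lower in BPA. IP over input was 3.62 in BPA and 1.07 in normal cells, a log2 ratio of 1.76 from the RPM columns and 2.53 in the authors' deposited table, which gives a false discovery rate of 3.23e-23. The BPA input of this peak rested on 41 reads, recovered from the RPM step, and the normal input on 282.

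The Arnt peak spanned 25 bases at chr3:95377628-95377652 on the plus strand. Its IP value was 176 RPM in BPA and 209 RPM in normal cells, and its input value was 4.89 RPM in BPA and 102 RPM in normal cells. The BPA input amounted to 4 reads, against 173 in the normal input. IP over input was 35.9 in BPA and 2.06 in normal cells, and the authors' deposited table gives a log2 fold change of 4.90 with a false discovery rate of 5.38e-11. The IP itself was lower in BPA, by a log2 difference of -0.25 with 1 RPM added. The log2 fold change was -0.41 for the RNA counts of the whole Arnt gene and -4.12 for the input at this peak. Fewer than 10 input reads in BPA were behind 48.4% of all peaks.

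The Nr2f2 peak spanned 150 bases at chr7:70003242-70003391 on the minus strand. Its IP value was 729 RPM in BPA and 166 RPM in normal cells, and its input value was 638 RPM in BPA and 261 RPM in normal cells. It was the 1 peak of the 3 in which both values were higher in BPA. IP over input was 1.14 in BPA and 0.634 in normal cells, so in normal cells the IP held fewer RPM than the input. The log2 ratio was 0.85 from the RPM columns and 1.63 in the authors' deposited table, with a false discovery rate of 4.11e-50. All 4 columns had over 400 reads at this peak, with 522 in the BPA input and 445 in the normal input. IP was higher in BPA in 54.2% of all peaks and input was lower in BPA in 61.3%. With 1 pooled value a condition there is no replicate spread for any of these peaks.

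**Figure D3:**
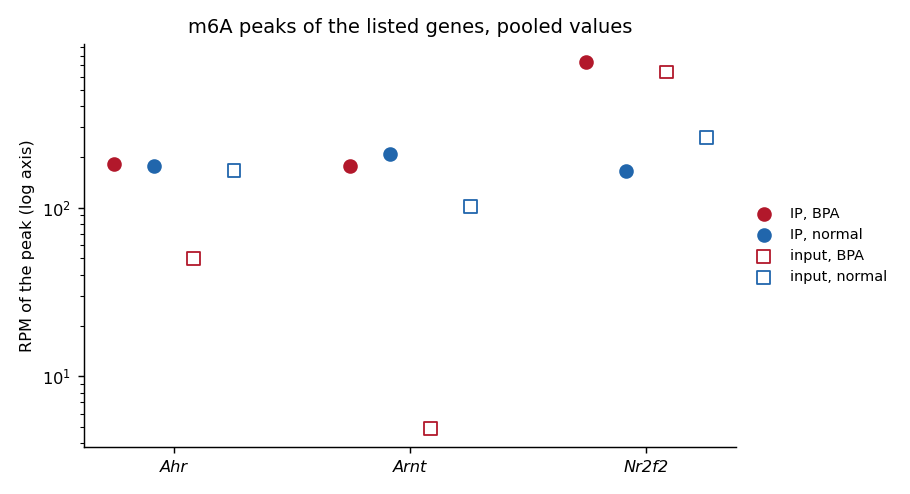
RPM of the m6A peaks of Ahr, Arnt and Nr2f2 on a log axis, with filled circles for the pooled IP and open squares for the pooled input, BPA in red and normal in blue. IP values of Ahr (181 and 178 RPM) and Arnt (176 and 209 RPM) are close while their inputs lie apart, and both values of Nr2f2 are higher in BPA.

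The other nuclear receptor genes were read the same way. Of these, 16 were rows of the table and 12 were tested, with log2 fold changes above 0 for 6 and below 0 for 6 (median -0.30). With replicate number as a block the median was -2.58, with 3 of 12 positive, and the median of all tested genes was -0.74 in that fit. The median of the receptors was -6.54 over 16 genes without BPA replicate 1 and -7.80 over 16 genes without BPA replicate 2. The medians of all tested genes were -2.95 and -1.14 in those fits. Thrb, Nr1h2, Nr1h4 and Nr4a1, which were not in the main fit, entered there through their normal reads and had 0 reads in both BPA libraries. With no filter on low counts the median was also over 16 genes, at -1.40, against -0.38 for all genes. It was -0.33 over 13 genes without normal replicate 1 and -1.28 over 14 genes without normal replicate 2. All tested genes had medians of -0.06 and -0.05 in those 2 fits. These medians thus depend on which genes pass the filter and on how the model treats counts near 0. Of the 12 receptors tested in the main fit, edgeR called 0 and DESeq2 called 1, Rara. DESeq2 gave no adjusted p for Nr4a2, Ppard and Nr2f6. At an unadjusted p under 0.05, 3 of 12 were lower (Nr4a2, Ppard and Rara), against 12.7% of all tested genes, and DESeq2 called 2.53% of those lower. Rara, the retinoic acid receptor alpha gene, had 0 and 1 reads in BPA cells and 435 and 379 in normal cells, with an adjusted p of 0.337 in edgeR and 0.0432 in DESeq2. Its relative Rarg had 866 and 1035 reads in BPA cells and 1185 and 1147 in normal cells, or 147 ± 65.6 and 125 ± 31.4 CPM (SD over 2 libraries each). Rarg was also the 1 gene of the 16 with an m6A peak, where 17.5% of all genes of the table had at least 1. The log2 fold change of this peak was 5.33 in the authors' deposited table. Its BPA input rested on 6 reads, against 192 in the normal input, and its IP was 270 RPM in BPA and 177 RPM in normal cells.

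Receptors at 0 reads in both BPA libraries numbered 6 of 16, against 24.6% of all genes of the table. Nr4a2, an immediate early orphan receptor gene, was seen in normal cells with 83 and 71 reads, so it was at least 37.0-fold lower in BPA. Ppard, the PPAR delta gene, had 262 and 12 reads in normal cells, so it was at least 65.9-fold lower, a bound carried by normal replicate 1. The oxysterol receptor gene Nr1h2 and Nr4a1 were also at 0 in BPA, with 90 and 8 reads for Nr1h2 and 131 and 1 for Nr4a1 in normal cells. The normal reads of Thrb (0 and 47) and Nr1h4 (0 and 97) came from 1 library each, as for Esrra. These bounds, like that of Esrra, use 3 counts over the group and leave out the spread between libraries.

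That spread was wide among receptors. The thyroid hormone receptor gene Thra had 5 and 1274 reads in BPA cells and 286 and 271 in normal cells. The vitamin D receptor gene Vdr had 1114 and 3 reads in BPA cells and 401 and 137 in normal cells. Nr1d2, which encodes the clock repressor REV-ERB beta, was among the steadier ones, with 1456 and 1178 reads in BPA cells and 1017 and 861 in normal cells. It averaged 195 ± 36.0 CPM in BPA and 99.3 ± 15.8 CPM in normal cells (SD over 2 libraries each), and edgeR gave an adjusted p of 0.806. The testicular orphan receptor genes Nr2c1 (110 and 0 reads in BPA, 200 and 102 in normal cells) and Nr2c2 (879 and 15 in BPA, 162 and 526 in normal cells) also varied within BPA, as did Nr2f1 (1 and 56 in BPA, 168 and 152 in normal cells), Nr2f6 (0 and 67 in BPA, 69 and 0 in normal cells) and Nr6a1 (0 and 180 in BPA, 440 and 172 in normal cells).

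**Figure D4:**
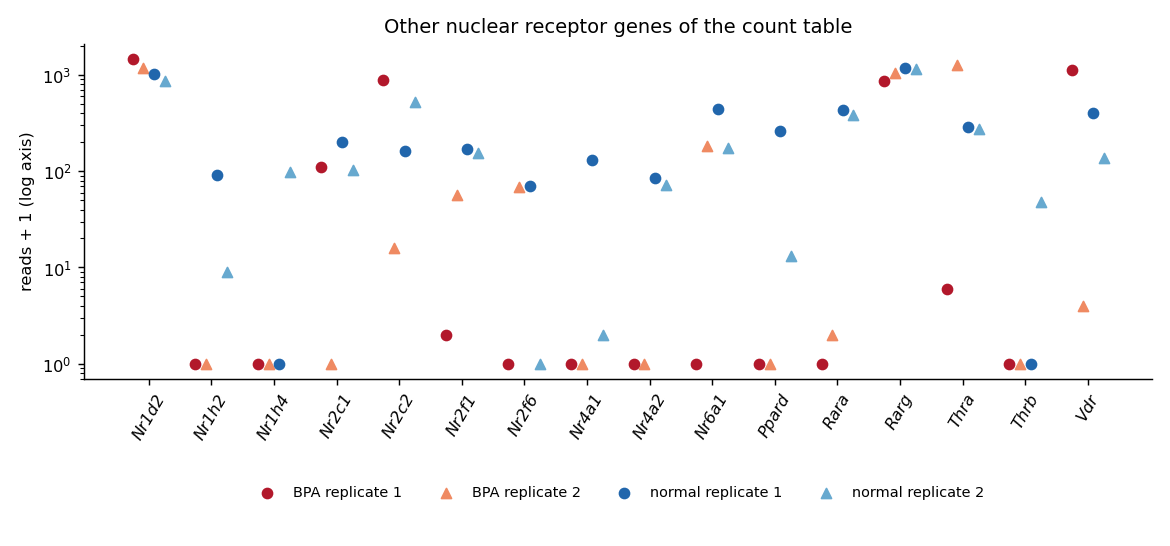
Reads plus 1 on a log axis for the 16 other nuclear receptor genes in the table, with 1 point for each library. Points at the bottom are libraries with 0 reads, and for Thra and Vdr the 2 BPA libraries lie far apart.

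Among the proteins that hold AHR and pair with ARNT, the chaperones were abundant in both groups. Hsp90ab1, the constitutive cytosolic HSP90, had 7639 ± 687 CPM in BPA and 5267 ± 1198 CPM in normal cells, and Ptges3, which encodes p23, had 833 ± 193 CPM in BPA and 577 ± 179 CPM in normal cells (SD over 2 libraries each). Hsp90aa1, the stress-inducible HSP90, had a log2 fold change of 0.96 ± 0.25 (SE) with an adjusted p of 0.329 in edgeR and 0.00627 in DESeq2. Hif1a, which encodes the hypoxia factor that also pairs with ARNT, had 3947 and 4766 reads in BPA cells and 5174 and 2591 in normal cells, and Arntl, a clock gene related to Arnt, had 0 and 1 in BPA and 140 and 103 in normal cells. Of the 7 tested genes of this list 5 had positive and 2 negative log2 fold changes and edgeR called 0. At an unadjusted p under 0.05 there were 1 higher, Hsp90aa1, and 1 lower, Arntl, against 1.35% higher and 12.7% lower of all tested genes. DESeq2 called 1, Hsp90aa1, as it did 0.521% of all tested genes higher, and gave no adjusted p for Arntl.

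The AHR target genes were split, with a median log2 fold change of 0.87, against -0.04 for all tested genes. With replicate number as a block the median was -0.31, against -0.74 for all tested genes. In the main fit 4 log2 fold changes were above 0 and 3 below, with 0 calls in edgeR and DESeq2. At an unadjusted p under 0.05 edgeR had 0, and DESeq2 gave no adjusted p for Ugt1a6b. Cyp1b1, an AHR-induced cytochrome, had 683 and 202 reads in BPA cells and 673 and 616 in normal cells, with a log2 fold change of -0.23 ± 1.22 (SE). Tiparp, an AHR-induced repressor of AHR, had 118 and 1 reads in BPA cells and 347 and 286 in normal cells. Serpinb2 had 1 and 1176 reads in BPA cells and 155 and 226 in normal cells, and Ugt1a6b, which shares exons with other Ugt1a genes so that its count is uncertain, had 33 and 0 in BPA and 223 and 4 in normal cells. No peak was listed for these genes.

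Coactivators, which receptors recruit to open chromatin, had 9 log2 fold changes above 0 and 11 below among 20 tested, with a median of -0.01. With DESeq2 size factors, which moved the median of all genes by 0.14, 12 of the 20 were above 0. edgeR called 0 and DESeq2 called 2, both lower, as were the 2 of 20 at an unadjusted p under 0.05, against 2.53% and 12.7% of all tested genes. These 2 were Ncoa3, which encodes SRC-3, with 0 and 0 reads in BPA cells and 568 and 533 in normal cells, and the acetyltransferase gene Kat2a, with 0 and 1 in BPA and 658 and 395 in normal cells. Ncoa3 was at least 265-fold lower, with an adjusted p of 0.329 in edgeR and 0.00537 in DESeq2. Its paralogue Ncoa2 had 1164 and 162 reads in BPA cells and 412 and 238 in normal cells, and Ncoa1 had 3 and 0 in BPA and 0 and 151 in normal cells. Med1, the Mediator subunit that binds receptors, had 164 and 525 reads in BPA cells and 1412 and 1284 in normal cells, with a log2 fold change of -1.29 ± 1.09 (SE).

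Corepressors had 6 log2 fold changes above 0 and 8 below among 14 tested (9 above 0 with DESeq2 size factors), with 0 calls in edgeR and DESeq2 and 1 of 14 lower at an unadjusted p under 0.05, against 12.7% of all tested genes. That was Nrip1, which encodes the estrogen receptor corepressor RIP140, with 2 and 2 reads in BPA cells and 272 and 472 in normal cells. Ncor1 had 3194 and 1083 reads in BPA cells and 3696 and 2308 in normal cells. Rcor1, which encodes the CoREST scaffold, had 432 and 1500 reads in BPA cells and 1 and 514 in normal cells. Phb2, a prohibitin that represses estrogen receptor, had 331 ± 124 CPM in BPA and 493 ± 44.6 CPM in normal cells (SD over 2 libraries each). The steroid receptor chaperones had 9 positive and 8 negative values, and Fkbp5, an immunophilin that lowers glucocorticoid receptor affinity, had 112 and 1 reads in BPA cells and 338 and 453 in normal cells, while Ppid had 2868 and 820 in BPA and 1533 and 1105 in normal cells. Hsp90aa1, which is also on this list, was the 1 chaperone gene with an unadjusted p under 0.05, and DESeq2 called it alone. Peaks were listed for 6 of 24 coactivator genes in the table (7 of 11 peaks positive in the authors' deposited table). They were listed for 8 of 14 corepressor genes (5 of 9 positive) and 8 of 17 chaperone genes (12 of 16 positive). Over all genes 17.5% had a peak, more of them abundant genes, and over all peaks 68.8% were positive.

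Estrogen receptor targets had 4 positive and 4 negative values among 8 tested, and 5 positive ones with DESeq2 size factors, with Cxcl12 at 3455 and 6736 reads in BPA cells and 3870 and 4469 in normal cells, C3 at 1349 and 1100 in BPA and 223 and 1859 in normal cells, and Myc at 672 and 2 in BPA and 1047 and 789 in normal cells. Glucocorticoid receptor targets had 2 positive and 8 negative values among 10 tested, with a median of -0.78, against 48.9% positive and a median of -0.04 over all tested genes. With each library left out their median ran from -2.16 (without BPA replicate 1, over 12 genes) to -0.37 (without normal replicate 2, 4 of 10 positive). The medians of all tested genes were -2.95 and -0.05 in those fits. With replicate number as a block the median was -0.73 for these targets and -0.74 for all tested genes. Of these targets Errfi1, a feedback inhibitor of EGF receptor signalling, had 1 and 0 reads in BPA cells and 257 and 114 in normal cells, with an adjusted p of 0.329 in edgeR. The metallothionein gene Mt1 had 2772 and 1065 in BPA and 7226 and 1800 in normal cells. PPARG and RXR targets had 5 positive and 6 negative values among 11 tested. The lipid droplet gene Plin2 had 418 and 164 reads in BPA cells and 883 and 1157 in normal cells, Srebf1 had 127 and 266 in BPA and 0 and 82 in normal cells, and Ucp2 had 1993 and 209 in BPA and 1808 and 2279 in normal cells. Targets of ERR alpha had 7 positive and 11 negative values among 18 tested, with Idh3b at 3 and 1 reads in BPA cells and 285 and 142 in normal cells, Cox5a at 0 and 1 in BPA and 200 and 204 in normal cells, and Acadm at 387 and 695 in BPA and 354 and 172 in normal cells. edgeR and DESeq2 called 0 genes of these 4 lists, and at an unadjusted p under 0.05 edgeR had 3, Errfi1, Idh3b and Cox5a, all lower. These are 3 of 47 tested genes, against 12.7% of all tested genes that were lower at that p.

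**Figure D5:**
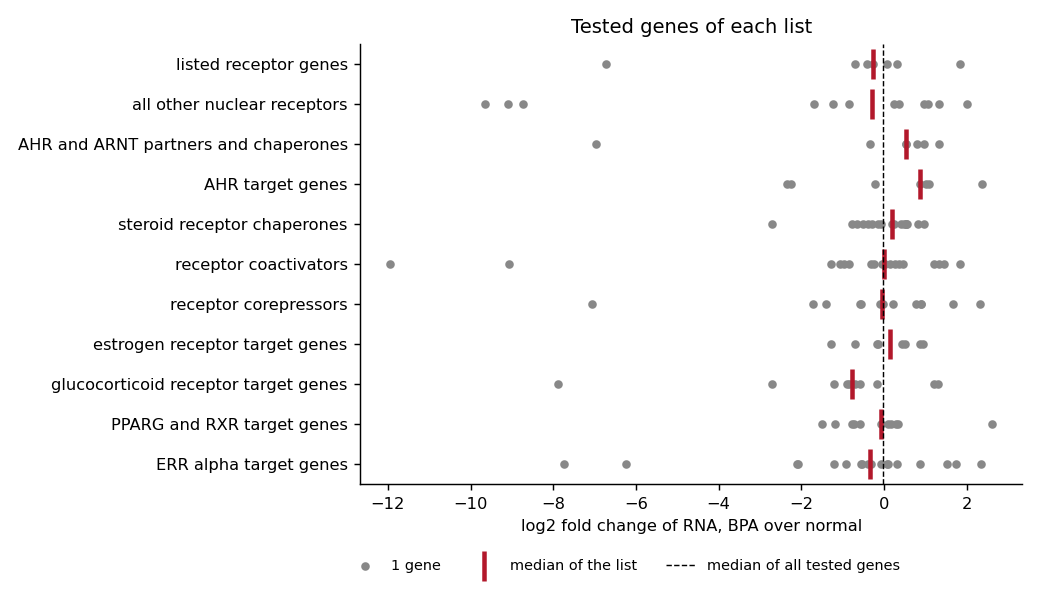
Log2 fold change of RNA, BPA over normal, of each tested gene (grey points) in each list, with the median of the list in red and the median of all tested genes, -0.04, as a dashed line. Points far to the left are genes with 0 to 4 reads over the BPA libraries, whose fitted value depends on how the model treats counts near 0, and the medians lie between -0.78 and 0.87. The Leydig list, with 1 tested gene, is not drawn.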

How the data were processed

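RNA-seq and MeRIP-seq of TM3 cells were read from 2 deposited tables. Per the labels' protocols, mRNA was purified on beads and fragmented, and part of it was immunoprecipitated for m6A. The authors deposited whole read counts per Ensembl gene. HISAT2 2.2.1, fastp 0.20.1, DESeq2 1.38.3 and featureCounts 2.0.1 are listed, per the submitters' processing notes, which also name the builds GRCh38 and GRCm39 without saying what each was used for. The names of the count columns give condition and replicate, not the assay, and were taken to mean RNA-seq, since a gene counter is listed and RNA-seq was the input. Columns named WT were read as the normal group. Symbols were found for 98.9% of the IDs.

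The authors deposited the peaks as pooled RPM per condition, with a log2 fold change and a p-value and false discovery rate from a test that the sources used here do not name. A score equal to the −log10 of the p-value, also deposited, was not used further. Reads were recovered from the RPM step, with 100% of values whole within 0.1 read. Peak starts were made 1-based. GRCm39 was taken as their build: in GRCm38, 11.3% of 3176 peaks lay within their gene.

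The count test was that of edgeR 4.0.16, run in R 4.3.3 (TMM, filterByExpr with minimum count 10 and minimum total 15, robust quasi-likelihood F test, Benjamini-Hochberg adjustment at 0.05 over 8645 genes), on 2 BPA against 2 normal libraries without a replicate block. The SE is the log2 fold change over the root of F. Library sizes for CPM, pooled ratios and floors were TMM-scaled, and DESeq2 1.42.0 was run as an alternative. The code was tested on simulated counts. Intervals are exact (Clopper-Pearson). The genes and lists were chosen with earlier results of these data known. Named were the 9 listed genes, all other nuclear receptor genes in the table, 10 set cofactors and targets, and the 3 genes with the smallest p of each other list. A few genes of these lists are not reported here and were left out of the list counts. No per-sample column was left unused.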

Additional observations from a re-analysis of the deposited data

How the results depend on the processing

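The listed genes had 0 calls at an adjusted p of 0.05 under each setting run: edgeR's quasi-likelihood test with DESeq2 size factors, with no filter on low counts, with genes of a mean of at least 1000 reads alone, with the replicate block or with each library left out, and DESeq2. Over all genes, edgeR called 0 higher and 0 lower in BPA. DESeq2 called 45 higher and 219 lower, edgeR without the filter called 1 higher, and the replicate block called 1 higher. With each library left out, calls were 3 to 474 higher and 0 to 1403 lower. The most were without BPA replicate 1, which leaves 1 BPA library that is assumed to vary like the normal ones. Without BPA replicate 2 there were 51 higher and 150 lower. Of the genes named in the text, leaving out BPA replicate 1 brought Fkbp5, Kat2a, Myc, Ncoa3, Nrip1, Rara, Tiparp and Ucp2 (lower) and Cxcl12, Serpinb2 and Thra (higher) past the threshold, and leaving out BPA replicate 2 did so for Kat2a and Ncoa3. The causes were not tested.

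The replicate block joins libraries by their shared number, and whether they were paired is not known. Deviations of the replicate 1 libraries from their group means had a correlation of -0.001 between BPA and normal cells. The replicate 2 libraries only mirror these, so this value cannot settle the pairing. With the block the log2 fold change turned to 0.67 for Esr1, -0.84 for Nr2c2, -1.55 for Serpinb2, -1.21 for Thra and -1.42 for Vdr. With DESeq2 size factors Ncor1 turned to 0.0402, as it did in DESeq2 (0.0403), and that scaling moved the median of all genes by 0.14. With genes of a mean of at least 1000 reads alone, Nr3c1 was -0.22 and Rarg -0.0492. With each library left out, the signs turned for these genes, whose log2 fold changes ran from -3.06 to 0.19 for Ahr, -1.47 to 0.26 for Arnt, -0.28 to 3.26 for C3, -0.14 to 1.52 for Cxcl12, -0.81 to 0.25 for Cyp1b1, -1.03 to 2.65 for Esr1, -1.24 to 0.32 for Mt1, -0.078 to 2.07 for Ncoa2, -0.55 to 0.31 for Ncor1, -3.80 to 1.93 for Nr2c2, -0.57 to 0.90 for Nr2f2, -7.80 to 8.48 for Nr2f6, -0.16 to 0.49 for Nr3c1, -11.12 to 0.21 for Nr6a1, -0.27 to 0.68 for Rarg, -7.32 to 3.43 for Serpinb2, -5.61 to 3.05 for Thra, -2.47 to 0.0872 for Ucp2, -9.35 to 2.06 for Ugt1a6b and -5.46 to 2.35 for Vdr. Of the 7 tested listed genes, Rxra kept its positive and Rxrb its negative sign in every setting that fitted them. Keeping a sign was not particular to this pair. Other named genes kept theirs too, among them Hsp90aa1, Hif1a and Nr1d2 (positive) and Kat2a and Ncoa3 (negative). With 2 libraries a group and the wide spread described above, a difference of the size of that of Rxra did not pass the test. Genes under about 10 reads in BPA give no usable fold change.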
